A study of Mus musculus with 16 samples.

Results

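Transcripts of 10 transcription factors that act in hematopoietic stem cells and early progenitors were followed in sorted mouse thymocytes, namely Erg, Lyl1, Hhex, Spi1, Bcl11a, Lmo2, Mef2c, Meis1, Hoxa9 and Gfi1b. Every probe set annotated to 1 of these symbols was taken, which gave 24 of the 45101 probe sets of the array and 10 of 18194 genes with a symbol. The genes were chosen by their known role with the GC-RMA values of the DN3 and ISP8 arrays in view, so the stage comparison is a description and carries no test. DN3 cells are CD4-CD8- thymocytes that carry CD25 and lack CD44, and they must rearrange the TCRβ locus before going on. ISP8 cells are the CD4-CD8+CD3- intermediates that follow and go on to express CD4 as well. The same 8 mice gave both subsets, mice of a C57Bl/6 backcross, with 4 PKBα-/- mice and 4 wild-type littermates, and each mouse gave 1 array per subset. PKBα, encoded by Akt1, is a kinase downstream of phosphoinositide 3-kinase, and it is missing from all cells of the mutant mice, not from the thymocytes alone. The littermate pairs are numbered 1 to 4 here. Pair 1 consisted of females of 3 weeks, pair 2 of males of 3 weeks, pair 3 of males of 2 weeks and pair 4 of females of 5 weeks, so age and sex cannot be told apart from the pair. Age, sex and litter were shared by both genotypes of a pair.

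Early T cell progenitors arrive in the thymus with a set of regulators that they share with stem cells and with B and myeloid progenitors. Notch signals and the T cell factors that they induce shut these genes down while the cells pass through the DN2 and DN3 stages, and forced expression of several of them, Lyl1, Lmo2, Hhex, Mef2c, Spi1 and Hoxa9 among them, is known from T cell leukemia. Erg and Spi1 (PU.1) are ETS factors, Lyl1 is a basic helix-loop-helix protein that works in complexes held together by the LIM protein Lmo2, Hhex, Hoxa9 and Meis1 are homeodomain proteins, Bcl11a and Gfi1b are zinc finger repressors, and Mef2c is a MADS box factor.

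The genes of CD25 and of a CD8 chain, surface markers of the sorts, were apart between the subsets. Il2ra, the gene of CD25, lay between 6899 and 10971 in DN3 and between 84.8 and 460 in ISP8 cells. Cd8a lay between 98.4 and 292 in DN3 and between 4251 and 6012 in ISP8 cells. Of 10 listed DN3 marker genes, 6 had every DN3 array above every ISP8 array and 4 overlapped. Of 7 listed ISP8 marker genes, 3 had every ISP8 array higher, 1, Arpp21, had the reverse and 3 overlapped. Akt1 ranged from 1198 to 2211 in the 8 wild-type arrays and from 2.01 to 27.3 in the 8 PKBα-/- arrays. All values are GC-RMA values, which are background-corrected and normalized intensities on a linear scale, and a value of 20 was taken as the lower end of what the array measured. The median over all probe sets lay between 58.5 and 70.5 in DN3 and between 55.1 and 60.4 in ISP8 arrays. Levels of different probe sets cannot be set against each other, so genes were compared only within a probe set, and the sums over marker lists given below are rough summaries in which bright probe sets weigh most. The labels number the ISP8 arrays before the DN3 arrays, and that order cannot be told apart from the subset.

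The 250 bases before the transcription start are shown for Erg, Hoxa9, Bcl11a and Mef2c, because in these 4 genes every DN3 array was higher than every ISP8 array at the probe set with the highest mean level. The sequences are those of RefSeq on the GRCm38.p6 build, 5′ to 3′ on the strand of the gene. Capitals mark GGAA, the core of sites for ETS factors such as Erg and Spi1, or its reverse complement TTCC. Erg and Mef2c have 3 listed starts each, of which 1 is shown.
Erg (chr16:95459349-95459598, minus strand): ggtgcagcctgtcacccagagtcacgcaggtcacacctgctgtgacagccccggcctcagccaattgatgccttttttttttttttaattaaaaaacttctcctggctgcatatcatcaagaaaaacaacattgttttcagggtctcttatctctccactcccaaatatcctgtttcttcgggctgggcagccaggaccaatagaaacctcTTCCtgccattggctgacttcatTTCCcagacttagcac
Hoxa9 (chr6:52227371-52227620, minus strand): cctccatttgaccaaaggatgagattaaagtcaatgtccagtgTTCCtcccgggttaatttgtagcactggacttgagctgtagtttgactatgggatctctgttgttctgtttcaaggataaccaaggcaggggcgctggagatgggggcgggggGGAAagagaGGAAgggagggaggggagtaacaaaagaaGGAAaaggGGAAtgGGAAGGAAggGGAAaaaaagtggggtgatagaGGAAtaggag
Bcl11a (chr11:24080445-24080694, plus strand): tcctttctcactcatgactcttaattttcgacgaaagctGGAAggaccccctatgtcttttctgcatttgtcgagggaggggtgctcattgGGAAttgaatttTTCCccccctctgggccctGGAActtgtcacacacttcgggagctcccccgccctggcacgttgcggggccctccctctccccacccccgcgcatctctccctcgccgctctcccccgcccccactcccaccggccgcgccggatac
Mef2c (chr13:83503784-83504033, plus strand): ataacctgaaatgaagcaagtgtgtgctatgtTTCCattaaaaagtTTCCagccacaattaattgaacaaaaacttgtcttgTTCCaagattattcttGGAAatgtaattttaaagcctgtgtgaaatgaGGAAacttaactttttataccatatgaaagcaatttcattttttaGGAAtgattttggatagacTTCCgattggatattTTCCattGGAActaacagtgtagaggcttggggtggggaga
The windows held 2 matches for Erg, 9 for Hoxa9, 4 for Bcl11a and 9 for Mef2c, while the other starts held 4 and 0 for Erg and 2 and 1 for Mef2c. GGAA is short, and 93.4% of all 32851 windows of this length held it on either strand, with a median of 3. A match of these letters is not a bound site. Windows were also at hand for Lyl1 with 5 matches, Gfi1b and Meis1 with 3 each and Hhex with 2, and none was at hand for Spi1 and Lmo2. The GATA motif AGATAA, searched on both strands, was in the Erg window shown and in no other window of the members, against 9.99% of all windows. The RUNX motif TGTGGT was in the Meis1 window, against 14.0% of all windows. The E-box CANNTG, the site of factors such as Lyl1, was in all 4 windows shown, against 66.2% of all windows. Each motif was counted by itself, whether or not its matches shared bases with those of another.

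Among the ETS factors, Erg had the steepest difference between the stages. In wild-type DN3 cells the values of pairs 1 to 4 were 1186, 1080, 862 and 1075, and in PKBα-/- DN3 cells they were 1156, 617, 1018 and 859. In ISP8 cells the same probe set gave 3.38, 34.8, 4.27 and 8.68 in wild-type and 6.87, 2.71, 9.11 and 11.2 in PKBα-/- mice. All DN3 arrays were high and 7 of 8 ISP8 arrays were below 20, with no overlap. The lowest DN3 array exceeded the highest ISP8 array by 17.7-fold. Within an animal the log2 difference, ISP8 minus DN3, was -7.04 ± 1.08 (SD, n = 8 mice), and since most ISP8 values were in the range of background this number depends on how background was treated. The other Erg probe set went from a range of 61.6 to 137 in DN3 to one of 1.79 to 30.2 in ISP8 cells, a log2 difference of -4.70 ± 1.68 (SD, n = 8). In bulk RNA from sorted cells, fewer cells that express a gene and less RNA per cell cannot be told apart.

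Spi1, the regulator that directs progenitors to myeloid and B cell fates, showed no such step. It was measured in DN3 cells at 109, 49.7, 62.6 and 79.5 in wild-type and at 79.0, 55.1, 31.3 and 28.4 in PKBα-/- mice. The ISP8 values were 70.7, 65.5, 85.0 and 87.3 in wild-type and 7.90, 43.1, 57.0 and 83.2 in PKBα-/- mice. The stages overlapped widely, 3 of 8 animals were lower in ISP8 cells, and the log2 difference was -0.11 ± 1.46 (SD, n = 8), or 0.51 without pair 1.

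Lyl1 and Lmo2, partners in progenitor transcription complexes, behaved differently from each other. Lyl1 stood at 185, 109, 99.96 and 43.4 in wild-type DN3 cells and at 181, 61.4, 106 and 84.6 in PKBα-/- DN3 cells. Its ISP8 values were 17.4, 53.2, 56.0 and 48.6 in wild-type and 29.4, 3.39, 36.0 and 30.2 in PKBα-/- mice. It was lower in ISP8 cells in 7 of 8 animals, by a log2 difference of -1.87 ± 1.44 (SD), and the arrays overlapped only through the wild-type mouse of pair 4, where DN3 was 43.4 and ISP8 48.6. Lmo2 was low throughout, from 5.28 to 58.3 with a median of 38.6 in DN3 and from 7.46 to 79.6 with a median of 35.0 in ISP8 cells. Its log2 difference of 0.24 ± 1.12 (SD, n = 8) had 4 animals on either side.

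The homeodomain genes went 3 ways. Hoxa9 gave 743, 442, 311 and 122 in wild-type DN3 cells and 658, 807, 92.9 and 737 in PKBα-/- DN3 cells. In ISP8 cells it gave 44.9, 57.9, 43.7 and 39.3 in wild-type and 36.8, 56.8, 24.0 and 48.0 in PKBα-/- mice. All 8 DN3 arrays were above all 8 ISP8 arrays, with a log2 difference of -3.17 ± 0.98 (SD), and the DN3 level itself varied more than in any other of the 4 genes whose stages did not overlap. A further Hoxa9 probe set was weaker, from 18.0 to 67.2 in DN3 and from 11.9 to 50.6 in ISP8 cells, and its stages overlapped. Hhex, which is needed in early lymphoid progenitors, stood at 185, 74.5, 47.4 and 111 in wild-type and at 165, 70.6, 42.0 and 148 in PKBα-/- DN3 cells. Its ISP8 values were 6.91, 51.0, 39.9 and 68.3 in wild-type and 49.2, 27.6, 60.0 and 32.7 in PKBα-/- mice. Hhex was lower in ISP8 cells in 7 of 8 animals, by -1.38 ± 1.61 (SD) on the log2 scale, with overlap, and by -0.75 without pair 1. Meis1, the DNA-binding partner of Hoxa9 in stem cells, remained between 17.9 and 75.6 in all 16 arrays with a log2 difference of 0.22 ± 0.59 (SD, n = 8), and its other 2 probe sets ranged from 0.755 to 53.3 and overlapped as well.

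Of the zinc finger genes, Bcl11a, a repressor required for B cell development and for stem cell function, was the more uniform in DN3 cells. Its values were 417, 405, 359 and 418 in wild-type and 360, 427, 183 and 374 in DN3 cells of PKBα-/- mice. The ISP8 arrays gave 69.0, 11.5, 61.0 and 59.7 in wild-type and 83.6, 50.7, 58.5 and 73.1 in PKBα-/- mice. The log2 difference was -2.79 ± 1.05 (SD, n = 8), and the lowest DN3 array was 2.19-fold above the highest ISP8 array. A total of 3 further Bcl11a probe sets separated the stages completely, with log2 differences of -4.13, -3.47 and -2.67. The remaining 3 were below the filter in both subsets and overlapped. Gfi1b, a transcriptional repressor active in the erythroid and megakaryocyte lineages, stood at 140, 104, 147 and 31.9 in wild-type DN3 cells. In PKBα-/- DN3 cells it stood at 49.0, 41.0, 60.4 and 39.2. It gave 16.7, 40.2, 18.1 and 32.7 in wild-type and 4.01, 35.8, 7.10 and 38.0 in PKBα-/- ISP8 cells. It was lower in ISP8 cells in 7 of 8 animals, by -1.80 ± 1.57 (SD) on the log2 scale, and pair 4 was nearly level between the stages.

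Mef2c, which takes part in the choice between lymphoid and myeloid fates, stood at 383, 259, 310 and 138 in wild-type and at 268, 256, 273 and 226 in PKBα-/- DN3 cells. In ISP8 cells it gave 49.0, 80.2, 55.7 and 52.9 in wild-type and 46.2, 55.6, 32.3 and 63.3 in PKBα-/- mice. The stages did not overlap, and the log2 difference of -2.27 ± 0.61 (SD, n = 8) had the smallest spread among the 4 genes with separate stages. All 8 ISP8 values were above 20. The other 4 Mef2c probe sets were weaker and overlapped, with mean log2 differences from -2.34 to -0.27.

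**Figure D1:**
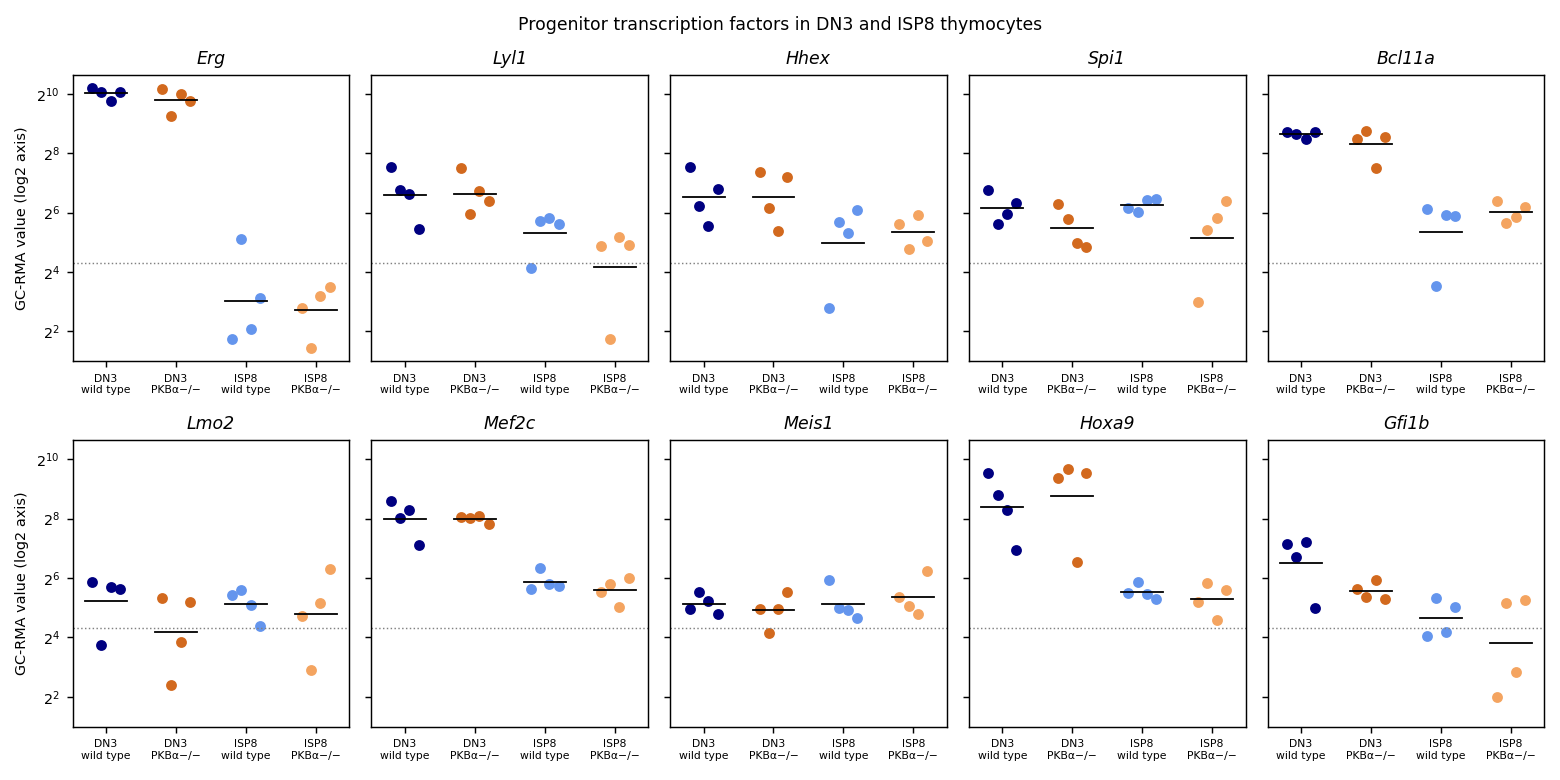
GC-RMA values (log2 axis) of the 10 genes at the probe set with the highest mean level, in DN3 and ISP8 cells of wild-type and PKBα-/- mice. Points are single arrays (n = 4 per group, pairs 1 to 4 from left to right), bars are geometric means and the dotted line is the value of 20. Erg, Bcl11a, Mef2c and Hoxa9 are separated between DN3 and ISP8, whereas Spi1, Lmo2 and Meis1 are not.

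Over all members, 8 of the 21 probe sets above the filter had every DN3 array above every ISP8 array, and 0 had the reverse. In all, 3 of the 24 failed the filter, which kept a probe set if 3 or more pairs had a mouse with a value above 20. Of all 36835 probe sets above the filter in either subset, 8.85% separated the stages with DN3 higher and 5.82% with ISP8 higher. Nothing is read from these counts about the members, since the stage values were known when they were chosen. The 8 probe sets belonged to 4 genes. The median log2 difference of the 10 genes was -1.83, against -0.05 over all probe sets above the filter.

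**Figure D2:**
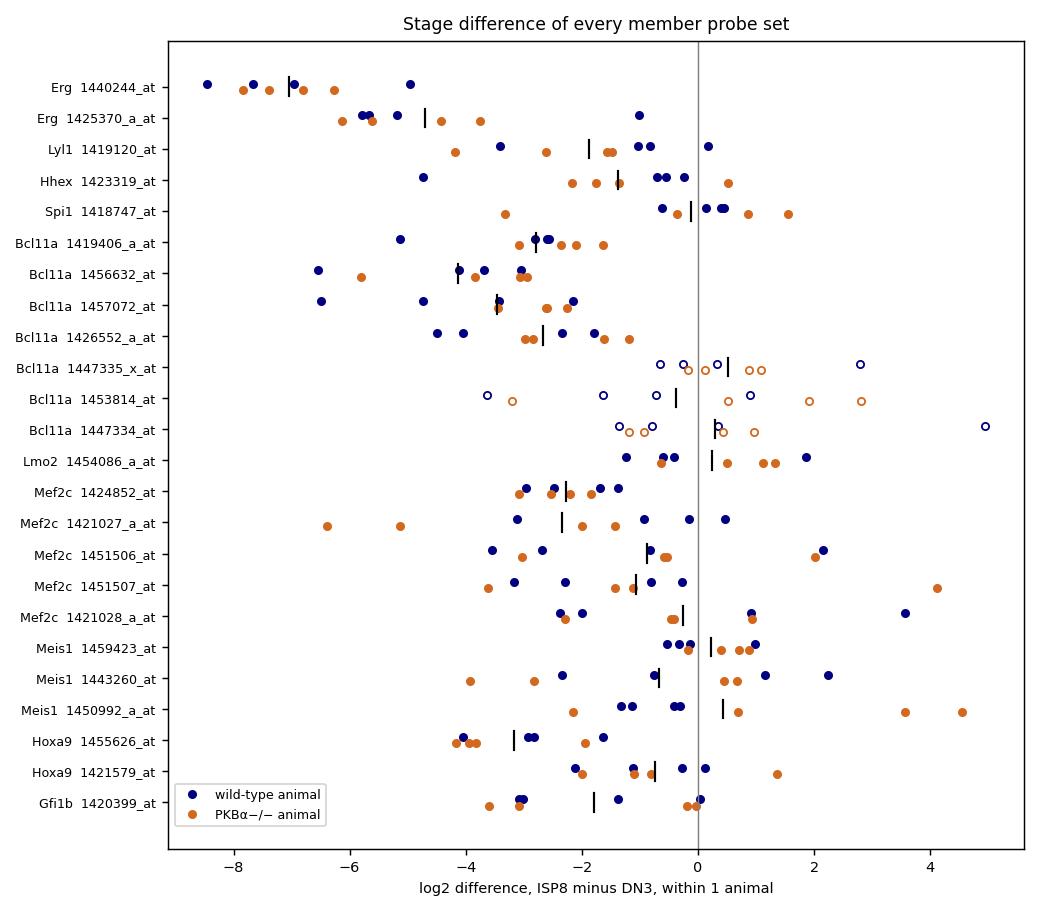
Log2 difference, ISP8 minus DN3, within each of 8 mice for all 24 probe sets of the members. Filled points are probe sets above the filter and open points those below it, and black bars are means. Both Erg probe sets, 4 of Bcl11a and the leading ones of Mef2c and Hoxa9 have all mice below 0, and the 3 open Bcl11a probe sets scatter around 0.

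The order of the group means put both DN3 groups above both ISP8 groups for Erg, Lyl1, Hhex, Bcl11a, Mef2c, Hoxa9 and Gfi1b. Neighbours in that order were called apart if their 4 and 4 arrays did not overlap. This was so only at the step from DN3 to ISP8, for Erg, Lyl1, Bcl11a, Mef2c and Hoxa9. Over both genotypes the Lyl1 stages overlapped, with 43.4 as the lowest DN3 value and 56.0 as the highest ISP8 value. The share of all probe sets with neighbours apart was not counted, and nothing is read from the number of these genes. For Hhex, Gfi1b, Spi1, Lmo2 and Meis1 no neighbouring groups were apart. In none of the 10 genes were the 2 genotypes of a subset apart where they were neighbours.

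Within the DN3 stage, the range between pair means was set against the largest gap between littermates, on the log2 scale. At the leading probe sets the range between pairs was larger for Hhex, Lyl1, Lmo2 and Mef2c. For Erg, Spi1, Bcl11a, Meis1, Hoxa9 and Gfi1b the gap between littermates was larger. Hhex was 185 and 165 in wild-type and PKBα-/- DN3 cells of pair 1, 111 and 148 in pair 4, 74.5 and 70.6 in pair 2, and 47.4 and 42.0 in pair 3. The pair means covered a range of 1.97 on the log2 scale, and the largest gap within a pair was 0.41. Both female pairs, of 3 and 5 weeks, were above both male pairs, of 3 and 2 weeks, in both genotypes. Chosen after their values were seen, 2 other progenitor-associated genes had the female pairs on top in DN3 cells too. Cpa3, a protease gene of early progenitors and mast cells, was 2660 and 2146 in wild-type and PKBα-/- cells of pair 1, 3236 and 2678 in pair 4, 1310 and 1304 in pair 2, and 702 and 724 in pair 3. Nfe2, a leucine zipper factor of the erythroid and megakaryocyte lineages, was 678 and 741 in pair 1, 667 and 789 in pair 4, 464 and 583 in pair 2, and 301 and 409 in pair 3. Kit and Cd44 had this order in PKBα-/- but not in wild-type mice, and Csf1r had it in neither genotype. In pair 4 and in pair 2, the wild-type mice were at 483 and 580 for Kit, 129 and 151 for Cd44, and 117 and 228 for Csf1r. The PKBα-/- mice of pair 4 and pair 2 were at 646 and 590 for Kit, 136 and 77.2 for Cd44, and 135 and 183 for Csf1r. With 2 pairs per sex and ages that differ, no test of sex or age was made.

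Lyl1 was less tied to the pair, with a range of 1.59 between pair means and a largest gap of 0.96 within a pair on the log2 scale. Lyl1 was highest in pair 1, in which Cd44, a surface marker of cells before DN3 that the sort selected against, was also highest. In DN3 cells of pair 1, Cd44 was 367 in the wild-type and 301 in the PKBα-/- mouse, and it was 72.6 to 151 in the other 6 DN3 arrays. Whether cells from before the DN3 stage have a part in the Lyl1 and Hhex values was not tested. On the list of early progenitor genes, Kit lay between 450 and 762 in DN3 and between 49.9 and 174 in ISP8 cells. Flt3 did not exceed 24.4 and Cd34 did not exceed 55.4 in DN3 cells, while Flt3 reached 60.0 at the later stage. Of the 9 genes above the filter, only Kit had every DN3 array higher, and 7 overlapped. Csf2rb had the reverse, with 42.7 as its highest DN3 value and 56.7 as its lowest ISP8 value. The summed level of the 10 genes on the array was 1807 to 2943 in wild-type DN3 and 1659 to 2411 in PKBα-/- DN3 cells. It was 1087 to 1472 in wild-type ISP8 and 1043 to 1413 in PKBα-/- ISP8 cells. The brightest gene in this sum was Tnfrsf1a, whose median was 1081 over the DN3 arrays, against 626 over the ISP8 arrays.

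Hoxa9 in DN3 cells did not follow the pair. Its 2 lowest arrays were the wild-type mouse of pair 4 at 122, whose PKBα-/- littermate was at 737, and the PKBα-/- mouse of pair 3 at 92.9, whose wild-type littermate was at 311. The second Hoxa9 probe set was also lowest in the PKBα-/- mouse of pair 3, at 18.0 against 40.2 to 67.2 in the other 7 DN3 arrays. Hoxa7, a neighbouring gene of the HoxA cluster chosen after its values were seen, was 17.8 in that mouse and 118 to 228 in the others. Other genes of the cluster, also chosen after their values were seen, were mixed. The leading Hoxa5 probe set was highest in that mouse, at 277 against 84.7 to 182. A further Hoxa5 probe set was lowest there, at 99.9 against 156 to 338. Hoxa10 was weak, with most DN3 values below 20. Its leading probe set was 32.8 in that mouse and 1.11 to 18.3 in the others. A further Hoxa10 probe set was 33.0 there and 1.21 to 43.0 in the others. In the wild-type mouse of pair 4, Hoxa7 was 143 and the second Hoxa9 probe set 45.2, both within the range of the other mice. The same PKBα-/- mouse of pair 3 also had the lowest DN3 value of Bcl11a, 183.

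**Figure D3:**
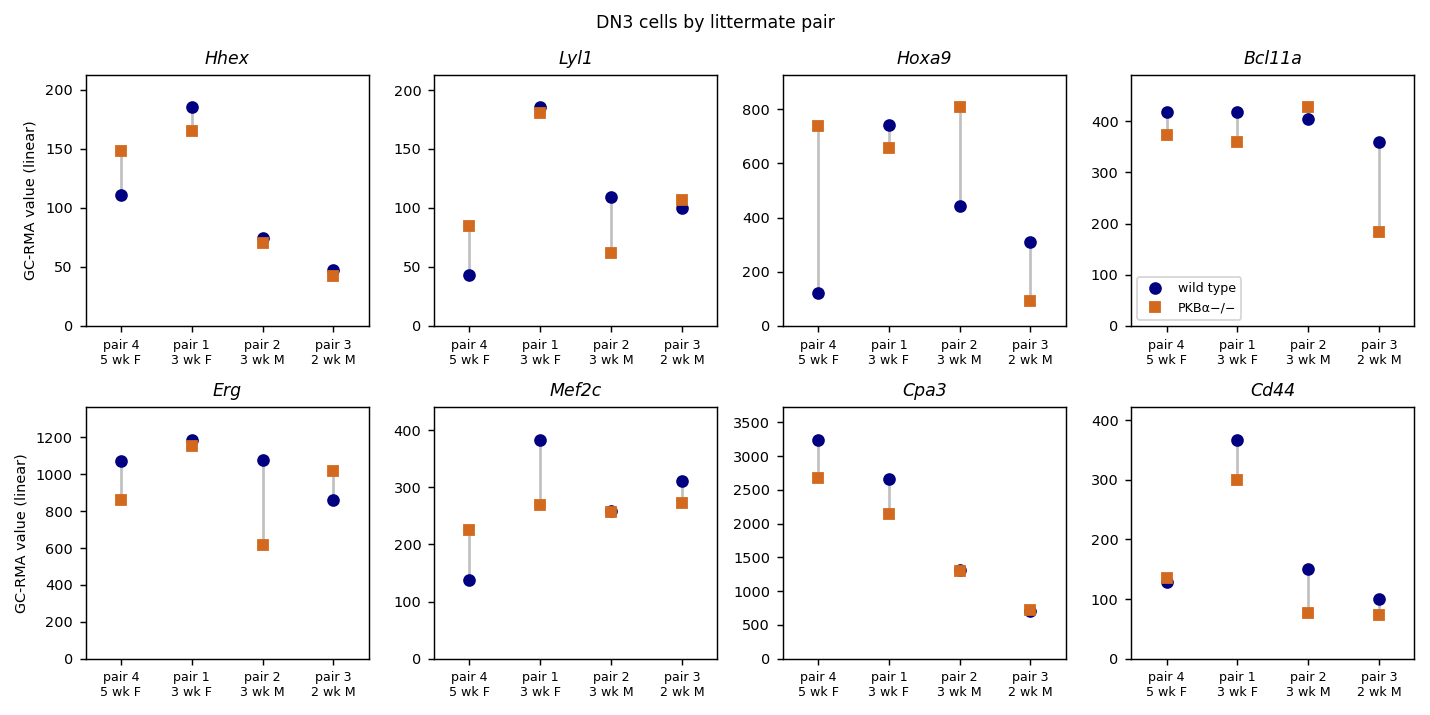
GC-RMA values (linear axes from 0) in DN3 cells of each littermate pair for 6 members and for Cpa3 and Cd44, with age in weeks and sex (F, female, M, male) under each pair. Circles are wild-type and squares PKBα-/- mice, and grey lines join littermates. Hhex and Cpa3 keep the littermates close together and the pairs apart, while Hoxa9 has 2 pairs whose littermates differ strongly.

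Across the 8 DN3 arrays the 45 pairs of members had Pearson correlations from -0.341 for Spi1 with Meis1 to 0.805 for Lyl1 with Mef2c, with a median of 0.285. These arrays come from 4 litters, so the correlations describe these arrays and have no p. The same measure was used to name the 2 genes most like each member with a mean above 100 in DN3 cells, among 26988 probe sets. They were Strap (r = 0.984) and Slc14a1 (0.98) for Hhex, Gpatch4 (0.961) and Nr2c1 (0.957) for Lyl1, and Taf4b and Ptgr2 (both 0.982) for Mef2c. For Erg they were Zfp622 (0.985) and Gab2 (0.976), for Bcl11a Samhd1 (0.985) and Chst11 (0.983), and for Hoxa9 Sh3d19 (0.973) and D030018L15Rik (0.971). Each is the highest of very many correlations over 8 arrays, so a high r follows in part from the search itself. The probe sets of Zfp622, Chst11, Sh3d19 and D030018L15Rik stayed below 50 in every DN3 array. Those of Samhd1 and Taf4b went down to 6.39 and 6.44 in their lowest DN3 arrays.

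Loss of PKBα was tested within littermate pairs by limma with Benjamini-Hochberg adjustment over all probe sets, separately in each subset. Earlier results of this contrast were known too when the members were put together. No member passed in DN3 cells, where 21 of the 24 probe sets could be tested and 0.0383% of all 33962 probe sets passed. The smallest adjusted p of a member was 0.972. At an unadjusted p under 0.05 there were 2 of 21 member probe sets, against 4.83% of all, and they were 1 of Bcl11a and that of Gfi1b.

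Gfi1b had the largest difference of level by genotype relative to its error in DN3 cells among the 10 genes at their leading probe sets. As given above, wild-type values of pairs 1 to 3 were 104 to 147 and their PKBα-/- littermates were 41.0 to 60.4, whereas pair 4 was at 31.9 and 39.2. The log2 change was -0.96 (SE 0.386, unadjusted p = 0.0229, adjusted p = 0.972 by limma), lower in 3 of 4 pairs, and the genotypes overlapped through pair 4. Without pair 4 it was -1.38 with an adjusted p of 0.273. Gfi1b is also active in the erythroid and megakaryocyte lineages, and markers of both were read in the same arrays. All 6 erythroid genes tested had a log2 change below 0, with a median of -0.67 against -0.01 over all probe sets, and none passed. Their summed level, over 7 genes on the array, was 458 to 523 in wild-type and 322 to 467 in DN3 cells of PKBα-/- mice. The main part of the sum was Hba-a2, a hemoglobin gene, at 175 to 283, whereas Hbb-b2 was 8.49 to 115, Klf1 27.5 to 69.7 and Alas2 1.16 to 14.3 over both genotypes. Of the 6 megakaryocyte and platelet genes tested in DN3 cells, 4 were below and 2 above 0, with a median of -0.42. In that list 2 had an unadjusted p under 0.05 by limma and none passed. The part of erythroid or megakaryocyte cells in the Gfi1b values was not tested.

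The Bcl11a probe set with the lower unadjusted p was 463, 436, 294 and 474 in wild-type and 352, 351, 151 and 414 in DN3 cells of PKBα-/- mice. It was lower in 4 of 4 pairs with a log2 change of -0.47 (SE 0.173, unadjusted p = 0.0150, adjusted p = 0.972 by limma), and the groups overlapped. At the other 3 Bcl11a probe sets above the filter the log2 changes were -0.32, -0.07 and -0.07, and the first of these was -0.10 without pair 3. In all 4 of them the PKBα-/- mouse of pair 3 was below its littermate.

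None of the remaining members had an unadjusted p under 0.05 at its leading probe set in DN3 cells. Lmo2 was lower in 4 of 4 pairs, by -1.04 (SE 0.650). Spi1 was lower in 3 of 4 pairs, by -0.70 (SE 0.403), beside neutrophil genes of which 5 of 6 tested were below 0 in DN3 cells, with a median log2 change of -1.28 and 2 at an unadjusted p under 0.05, none of which passed. The summed level of the 7 neutrophil genes was 125 to 1494 in wild-type and 97.6 to 758 in PKBα-/- mice. Of the 12 dendritic cell and macrophage genes tested in DN3 cells, 6 were above and 6 below 0, with a median of 0.14. In that list 6 had an unadjusted p under 0.05 by limma and none passed. Its summed level was 1105 to 1773 in wild-type and 1164 to 2067 in PKBα-/- mice. The part of myeloid cells in the DN3 values of Spi1 was not tested. The estimate was -0.23 for Erg (SE 0.146), -0.22 for Meis1 (SE 0.574), 0.05 for Lyl1 (SE 0.313) and 0.39 for Hoxa9 (SE 0.403). The Hoxa9 change was 1.10 without pair 3 and -0.35 without pair 4. Hhex and Mef2c both came to 0.00, with SE of 0.290 and 0.208. A selection after the methods, by a paired test and a change of 1.5-fold one way in 3 or more pairs but without their detection calls, which were not used here, took 1 member probe set, against 1.35% of all. This was a weak Meis1 probe set at 31.7, 36.6, 46.9 and 3.04 in wild-type and at 1.19, 0.755, 6.64 and 1.22 in PKBα-/- DN3 cells, and its limma change was -3.62 (SE 2.23, adjusted p = 0.972).

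In ISP8 cells 14 member probe sets were above the filter and 0 passed, against 0.0147% of 34016 probe sets, with a smallest adjusted p of 0.803. Both Erg probe sets and Gfi1b were below the filter there and were not tested. The 2 of 14 with an unadjusted p under 0.05, against 6.08% of all, were Spi1 and a weaker Mef2c probe set. Spi1 was lower in PKBα-/- cells in 4 of 4 pairs with a log2 change of -1.10 (SE 0.509, unadjusted p = 0.0495, adjusted p = 0.817 by limma). Most of it came from pair 1, at 70.7 in the wild-type and 7.90 in the PKBα-/- mouse, and without pair 1 the change was -0.42. The Mef2c probe set was 16.4, 65.2, 24.3 and 59.5 in wild-type and 1.06, 19.3, 1.78 and 44.9 in PKBα-/- ISP8 cells, a log2 change of -2.47 (SE 1.02, adjusted p = 0.803). The leading Mef2c probe set had a log2 change of -0.29 (SE 0.395). The same selection took 0 members in ISP8 cells, against 1.53% of all.

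Markers of myeloid cells, which express Spi1, were lower in PKBα-/- ISP8 cells too, without passing the test. All 7 neutrophil genes tested were below 0 with a median log2 change of -2.05, against 0.02 over all probe sets, and 5 of 7 had an unadjusted p under 0.05 but none passed. Their summed level was 223 to 4697 in wild-type and 119 to 283 in PKBα-/- ISP8 cells. The highest sum, 4697, was in the wild-type array of pair 2, where Spi1 was 65.5, the lowest of the wild-type ISP8 values. Of the 10 dendritic cell and macrophage genes tested, 9 were below 0, with a median of -0.29 and a summed level over 12 genes of 1259 to 1821 in wild-type and 907 to 1821 in PKBα-/- mice. The ISP8 sort took CD4-CD8+CD3- cells. The part of myeloid cells in the ISP8 values of Spi1 was not tested.

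**Figure D4:**
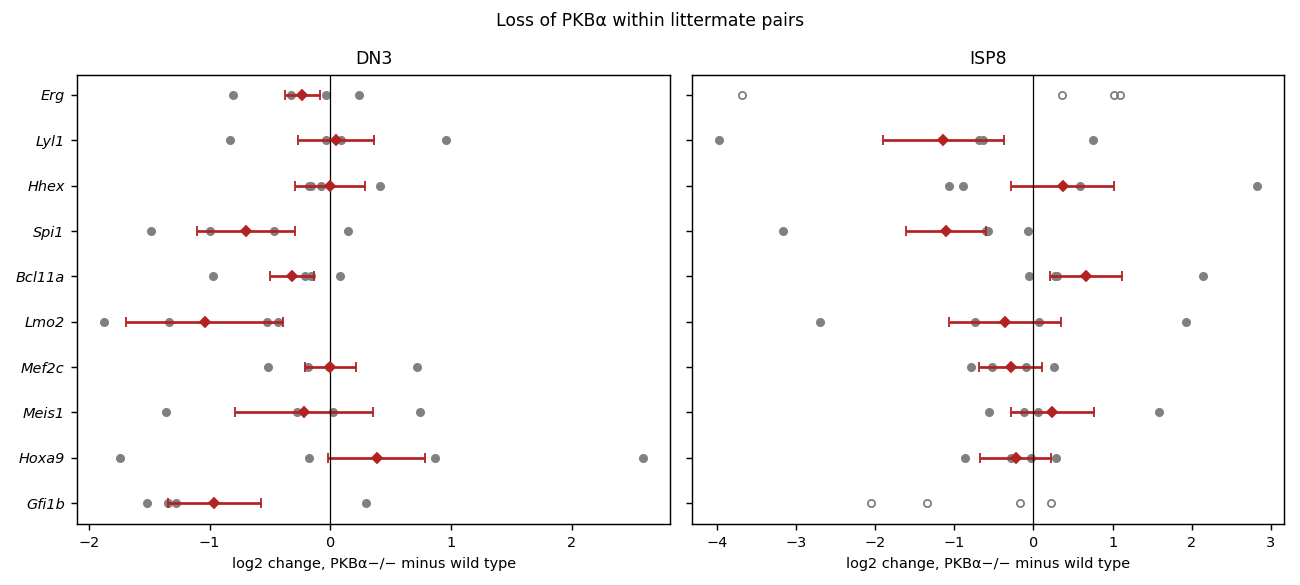
Log2 change, PKBα-/- minus wild type, of the 10 members in DN3 (left) and ISP8 (right) cells. Grey points are the 4 littermate pairs, red diamonds with bars are the limma estimate ± SE, and open points without a diamond are probe sets below the filter, which were not tested. The pairs of most genes lie on both sides of 0, and for Gfi1b in DN3 cells 3 of 4 pairs lie below -1.

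Whether the genotype effect differed between the subsets was tested on the difference within each animal. No member passed, 0 of 21 against 0.00271% of 36835 probe sets, and 2 had an unadjusted p under 0.05, against 6.74% of all. The leading Bcl11a probe set had a smaller stage difference in PKBα-/- mice, at -2.30 ± 0.60 against -3.28 ± 1.25 in wild-type mice (log2, SD, n = 4 each). The effect was 0.98 higher in ISP8 than in DN3 cells (SE 0.386, adjusted p = 0.716 by limma) in 4 of 4 pairs. Without pair 2, whose wild-type ISP8 array was the lowest at 11.5, it was 0.62. The weaker Mef2c probe set had the opposite sign, -2.80 (SE 0.806, adjusted p = 0.661 by limma) in 4 of 4 pairs, and the leading Mef2c probe set had -0.29 (SE 0.392).

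To place the members, a list of 26 other regulators of stem cells and progenitors was examined, of which 25 were on the array and 23 above the filter. For these, 7 had all DN3 arrays above all ISP8 arrays, 4 had the reverse and 12 overlapped. Nfe2 went from 301 to 789 in DN3 to 1.51 to 33.6 in ISP8 cells, with a log2 difference of -6.31 ± 2.19 (SD, n = 8) that depends on the treatment of background, since the median in ISP8 cells was 7.84. Mycn, a MYC family gene, went from 695 to 1131 in DN3 down to 55.0 to 177 in ISP8 cells. Etv6, an ETS repressor, ranged from 3457 to 4714 in DN3 and from 1060 to 1530 in ISP8 cells, and Runx1, required for stem cells and for T cell development, was 6639 to 9828 and 2202 to 3606. In the other direction, Mef2a, of the same family as Mef2c, ranged from 954 to 1606 in DN3 and from 3375 to 5320 in ISP8 cells, and Bcl6, a repressor of germinal centre B cells, was 144 to 393 and 572 to 1231. Gata2 and Tal1, core factors of stem cells, did not exceed 80.3 and 63.8 in any array. The median log2 difference over the list was -0.45. By genotype 0 of 22 genes passed in DN3 and 0 of 21 in ISP8 cells.

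**Figure D5:**
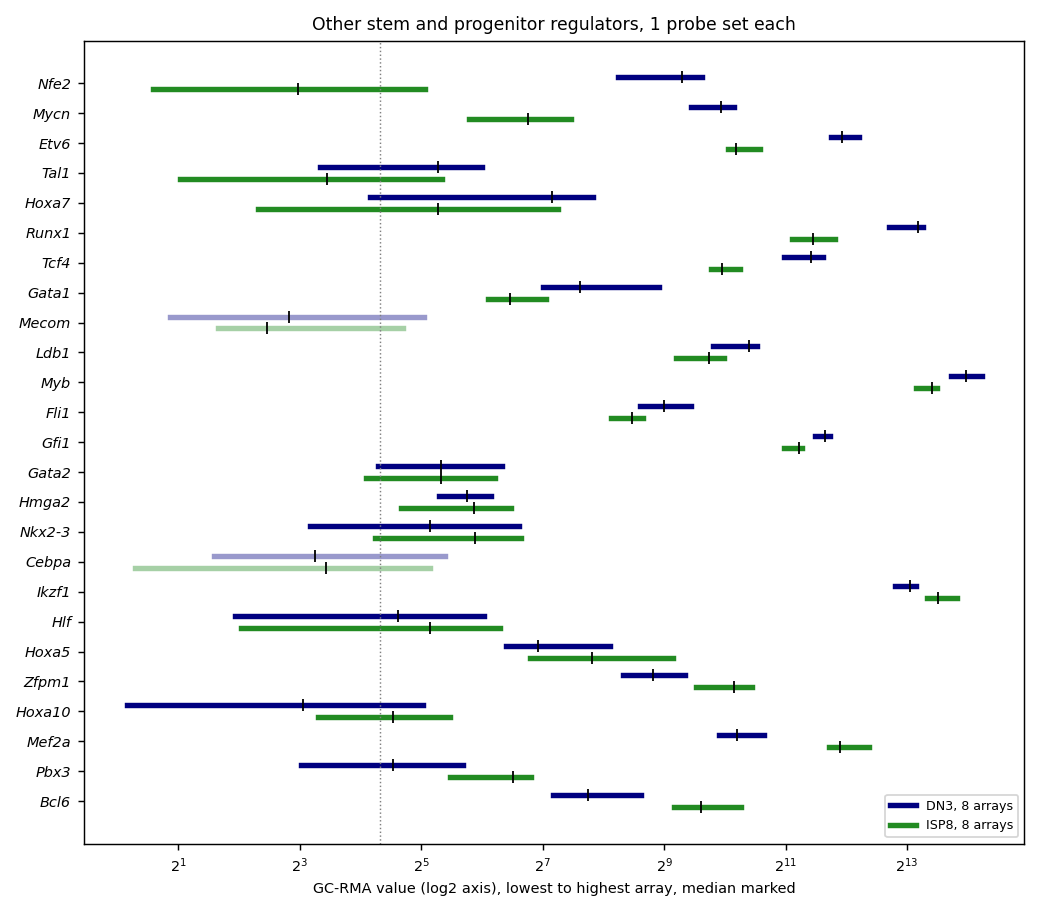
GC-RMA values (log2 axis) of 25 other stem and progenitor regulators at 1 probe set each, as the lowest to the highest of 8 DN3 arrays (blue) and 8 ISP8 arrays (green), with the median marked and faint lines for genes below the filter. Genes are ordered by the median log2 difference, ISP8 minus DN3. Nfe2, Mycn, Etv6, Runx1, Tcf4, Myb and Gfi1 have DN3 above ISP8, and Bcl6, Mef2a, Zfpm1 and Ikzf1 have the reverse.

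Several members are also used by B cells and plasmacytoid dendritic cells, so the markers of these cells were read in the same arrays. Of the B cell genes, Cd79a, Pax5 and Ebf1 did not exceed 47.6 in DN3 and 62.3 in ISP8 cells. Cd79b and Vpreb1, of the B cell and pre-B cell receptor, were higher in DN3 cells, at 992 to 1270 and 259 to 383, than in ISP8 cells, at 183 to 353 and 31.9 to 91.1. The summed level of the 11 genes ran from 9810 to 12961 in DN3 and from 14629 to 22341 in ISP8 cells, most of it Ighm, with 2 genes higher in DN3, 2 higher in ISP8 and 7 overlapping. Of the 9 plasmacytoid dendritic cell genes, 5 were higher in DN3 and 4 overlapped, with a summed level from 14972 to 21449 in DN3 and from 6058 to 10388 in ISP8 cells. Siglech, the defining surface marker, ranged from 4.37 to 37.1 in DN3 and from 14.0 to 70.1 in ISP8 cells. The part of these cells in the Bcl11a and Mef2c values was not tested.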

How the data were processed

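RNA of FACS-sorted DN3 and ISP8 thymocytes was amplified in 2 cycles and hybridised to Affymetrix mouse genome arrays. The authors turned the scanned signals into background-corrected, normalized GC-RMA values, and these deposited values are intensities on a linear scale for 45101 probe sets and 16 arrays. Array data have no read depth, and 4 arrays per group limit the precision. Groups and pairs were taken from the labels, which name each mouse's littermate. Deviations from group means, over 23837 and 23126 probe sets above 20, correlated at 0.316 to 0.384 within pairs in DN3 and 0.0706 to 0.178 in ISP8 cells, and at most at 0.0714 and 0.054 between pairs.

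Values were log2 transformed without a constant and kept where 3 or more pairs had a mouse above 20. Genotype effects were fitted with limma 3.58.1 under R 4.3.3 (lmFit, eBayes with a trend, pair as a block), tested on simulated data first, and adjusted by Benjamini-Hochberg with a threshold of 0.05. The residual degrees of freedom were 3. The difference between subsets was fitted on the log2 difference within each animal. Symbols come from the platform annotation, where 34958 probe sets carry 1 symbol. A gene is represented by its probe set with the highest mean level, and all members were named. Of the list of other regulators, up to 6 genes with the largest stage difference were to be named, and other genes are marked where chosen after their values were seen. The members and the 15 other gene lists were chosen with earlier results of these data known. Counting over those lists, 1 gene passed by genotype in DN3 cells (Cd163l1, a gene of γδ T cells), 0 passed in ISP8 cells and 0 in the difference between subsets. Alternatives were another filter, added constant, normalization, block, probe set summary and the selection of the methods without its detection calls, and each pair left out.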

Additional observations from a re-analysis of the deposited data

Results flagged for a closer look

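Of 40 groups of 4 arrays examined for a sample far from the others, 2 held one, and chance gives about 1 in 20. Both are the wild-type ISP8 array of pair 2. Erg was 34.8 there, against at most 8.68 in the other wild-type ISP8 arrays. Bcl11a was 11.5 there, against at least 59.7 in the others. The same array also had the highest summed level of neutrophil genes, 4697.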

How the results depend on the processing

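The count of member probe sets that passed by genotype was 0 in DN3, ISP8 and the difference between subsets under every alternative run, and also without the replicate block, where the pairing was left out (0 in each), and without each pair in turn (0 to 0 in each). The exception is the selection after the methods, which is not adjusted and took 1 in DN3 cells. The 8 probe sets with separate stages became 2 genes, Erg and Bcl11a, when all probe sets of a gene above the filter were averaged, and Mef2c and Hoxa9 then overlapped. The count was 8 to 10 without each pair in turn, 8 in wild-type mice alone and 11 in PKBα-/- mice alone. These settings have fewer arrays per stage, so that arrays separate more easily. The share over all probe sets was not counted for them, and nothing is read from the counts. In all, 20 genotype values of single genes changed sign, none of which passed. The cause was not tested. Hhex in DN3 cells was 0.0071 and Mef2c -0.0065 with 20 added, and the Erg difference between subsets was then 0.055. Hhex was 0.043 after quantile normalization. Averaged over probe sets, Erg in DN3 cells was 0.041 and Meis1 in ISP8 cells -0.34. Leaving out each pair in turn, the DN3 values went from -0.14 to 0.057 for Hhex, -0.24 to 0.17 for Mef2c, -0.54 to 0.16 for Meis1, -0.26 to 0.34 for Lyl1 and -0.35 to 1.10 for Hoxa9. The ISP8 values went from -0.45 to 0.84 for Hhex, -1.12 to 0.42 for Lmo2 and -0.21 to 0.51 for Meis1. The differences between subsets went from -0.45 to 0.87 for Erg, -0.51 to 0.98 for Hhex, -1.01 to 0.36 for Spi1 and -0.23 to 0.34 for Gfi1b. The Erg stage difference was -5.09 with 20 added and -5.87 averaged over probe sets, where that of Mef2c was -1.37 and that of Hoxa9 -1.96. Without each pair in turn, stage differences went from -7.25 to -6.74 for Erg, -3.01 to -2.35 for Bcl11a, -2.49 to -2.10 for Mef2c, -3.43 to -2.85 for Hoxa9, -2.27 to -1.49 for Lyl1, -1.88 to -0.75 for Hhex, -2.39 to -1.28 for Gfi1b and -0.43 to 0.51 for Spi1. Values near 20 limit what can be measured for Lmo2, Meis1 and, in ISP8 cells, Erg and Gfi1b.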

Other observations

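Other genes on the lists also had every DN3 array above every ISP8 array. Pld4, a phospholipase family gene known from dendritic cells, ranged from 2979 to 6301 in DN3 and from 60.7 to 107 in ISP8 cells, and Spib, an ETS factor related to Spi1, was 808 to 2414 and 67.0 to 194. Both were chosen after their values were seen. Cpa3 ranged from 702 to 3236 in DN3 and from 3.53 to 112 in ISP8 cells, while the other 5 mast cell genes did not exceed 41.8 in DN3 cells. Lyz2 and Nkg7 were likewise picked after their values were seen. The DN3 arrays had Lyz2 at 295 to 850, against 8.20 to 291 at the later stage. The other 11 of the 12 dendritic cell and macrophage genes above the filter overlapped. For Nkg7 the DN3 arrays were at 1350 to 1888, against 105 to 312. Of the 6 NK and innate lymphoid genes above the filter, 4 overlapped and 1, Klrd1, had the reverse. Its highest DN3 value was 37.9 and its lowest ISP8 value 56.1.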
